A study of Mus musculus with 47 samples.

Results

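Here, 9 marker genes of hippocampal subfields (Prox1, C1ql2, Dsp, Calb1, Wfs1, Fibcd1, Rgs14, Neurod6 and Zbtb20) and Frem3 were followed across genotype and diet in bulk RNA sequencing of mouse brain. The 10 genes were taken by symbol from 31751 genes counted in hippocampus and 33139 in brainstem. The markers were chosen by the cells they mark, and Frem3 was selected on its measured fold change between genotypes in hippocampus, so that this difference is given below as a description without a test. The data comprised 24 libraries of hippocampus, dissected whole with all subfields, with 6 mice in each of 4 groups, and 23 of brainstem, taken as the medulla, with 5 WT-SD mice and 6 in each other group. All mice were male C57BL/6. TG mice carried a mutant human transgene in the homozygous state under the neuron-specific Thy1 promoter, as a model of Parkinson disease, and WT mice came from the same outcross. The 2 genotypes were kept as parallel colonies, so that genotype cannot be told apart from colony. Mice of each genotype received a standard diet (groups WT-SD and TG-SD) or a high fat diet (groups WT-HFD and TG-HFD) from a young age until about a year of age.

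The hippocampus is a chain of subfields. Granule cells of the dentate gyrus send mossy fibres to CA3 pyramidal cells, which project to CA1, with the small CA2 field between them. Each field holds neurons of 1 main kind, so a few genes per field serve as its markers. Prox1, C1ql2, Dsp and Calb1 mark granule cells, Wfs1 and Fibcd1 mark CA1, Rgs14 marks CA2, Neurod6 marks pyramidal cells and Zbtb20 marks the principal neurons of several fields. No gene among the 10 marks CA3 alone. Frem3 encodes a large extracellular matrix protein of the FRAS1 and FREM family, whose members assemble in basement membranes. In bulk tissue, fewer cells of a type and less RNA per cell cannot be told apart.

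Promoters of 8 of the 10 genes were matched by symbol in RefSeq (build GRCm38.p6). The 250 bases before the annotated start are shown for Frem3, the gene with the genotype difference, for C1ql2, whose groups separated on high fat diet, and for Prox1 and Dsp, which varied together between libraries. Capitals mark matches to CANNTG, the E-box bound by basic helix-loop-helix factors such as NEUROD6, which reads the same on both strands.
Frem3: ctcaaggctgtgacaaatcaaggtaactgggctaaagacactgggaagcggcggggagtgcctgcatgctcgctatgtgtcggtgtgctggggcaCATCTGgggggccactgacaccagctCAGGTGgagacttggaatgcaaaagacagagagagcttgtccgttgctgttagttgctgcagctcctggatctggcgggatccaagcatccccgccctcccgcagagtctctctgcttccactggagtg
C1ql2: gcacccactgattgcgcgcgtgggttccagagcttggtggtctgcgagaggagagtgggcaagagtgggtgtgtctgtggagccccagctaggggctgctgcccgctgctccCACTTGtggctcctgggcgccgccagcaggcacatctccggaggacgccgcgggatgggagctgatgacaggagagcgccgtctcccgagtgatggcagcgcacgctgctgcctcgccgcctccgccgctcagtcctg
Prox1: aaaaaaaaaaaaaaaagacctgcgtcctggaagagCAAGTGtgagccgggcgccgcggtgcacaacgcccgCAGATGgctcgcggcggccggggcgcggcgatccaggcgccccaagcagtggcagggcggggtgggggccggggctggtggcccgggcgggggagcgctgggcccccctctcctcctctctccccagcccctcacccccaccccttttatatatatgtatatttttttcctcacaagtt
Dsp: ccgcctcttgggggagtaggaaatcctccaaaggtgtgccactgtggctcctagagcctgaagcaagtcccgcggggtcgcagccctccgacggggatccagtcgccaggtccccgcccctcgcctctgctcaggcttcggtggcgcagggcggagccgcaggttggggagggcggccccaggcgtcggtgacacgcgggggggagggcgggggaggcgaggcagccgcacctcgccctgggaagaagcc
The Frem3 sequence lies on the plus strand at chr8:80610789-80611038, that of C1ql2 on the plus strand at chr1:120340332-120340581, that of Prox1, the more distal of its 2 listed starts, on the minus strand at chr1:190170828-190171077, and that of Dsp on the plus strand at chr13:38151044-38151293. CANNTG occurred 2 times in the Frem3 and Prox1 sequences, 1 time in that of C1ql2 and not in that of Dsp, and it was present in 66.2% of all 32851 promoters of this length. The GC box GGGCGG, counted on both strands, occurred 4 times before Dsp, 2 times before Prox1, 1 time before Frem3 and not before C1ql2, and it was present in 32.7% of all promoters. GC content was 58.4% for Frem3, 64.8% for Prox1, 68.8% for C1ql2 and 72.4% for Dsp, where the median promoter had 52.4%. The other listed start of Prox1, not shown, had 0 matches to CANNTG, 1 GC box and 56.0% GC. These matches describe the letters only, and say nothing of binding in these mice.

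Library totals ran from 11945971 to 17328447 counts in hippocampus and from 10020784 to 15078812 in brainstem. Levels are CPM, counts scaled to library size, after TMM scaling, and RPKM values divide them by the summed exon length. Genes that averaged 50 or more counts in a region were tested, 13272 in hippocampus and 13340 in brainstem. All 10 genes passed this filter in hippocampus and 6 of 10 in brainstem, where C1ql2, Dsp, Rgs14 and Frem3 fell below it. As a check of the labels, transgene reads were higher in all 12 TG libraries than in every WT library of the same region. Markers of other tissues were also measured. Of 6 medulla genes, 2 were in the hippocampus table and both had fewer than 10 counts in every library, with a summed level of at most 0.505 CPM against 322 to 557 CPM for the list in brainstem. Choroid plexus genes summed to between 36.4 and 308 CPM in hippocampus, with the highest value in WT-SD, and their part in the results was not tested. The TG-SD replicate 5 of hippocampus had the lowest Prox1 (61.5 CPM), Dsp (31.1 CPM) and Zbtb20 (96.0 CPM) of all hippocampus libraries. It also had the highest Fibcd1 (196 CPM). Its C1ql2 (51.2 CPM), Calb1 (132 CPM) and Wfs1 (90.4 CPM) lay within the range of the other TG-SD libraries. Some of the results that rest on this library are also given without it.

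In hippocampus, the pyramidal cell gene Neurod6 had the highest level of the 10 per length, with a mean of 98.8 RPKM over 24 libraries. Fibcd1 followed with 34.7 RPKM, then C1ql2 with 28.3, Calb1 with 27.5, Wfs1 with 27.0 and Rgs14 with 24.4 RPKM. Prox1 had 11.8, Dsp 5.38 and Zbtb20 4.66 RPKM, and Frem3 was lowest with 0.569 RPKM, resting on 25 to 91 counts per library. Neighbours among C1ql2, Calb1, Wfs1 and Rgs14 differed by less than the spread of C1ql2 between libraries, which ranged from 38.0 to 78.4 CPM.

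Levels in hippocampus and brainstem were compared after joint scaling of all 47 libraries. Rgs14, a signalling protein that limits plasticity in CA2, was 183-fold higher in hippocampus, and its brainstem counts were 1 to 12 per library. Dsp, the desmosome protein desmoplakin, was 52.9-fold higher, the transcription factor Neurod6 49.1-fold and the transmembrane receptor Fibcd1 33.7-fold. C1ql2, a secreted protein of mossy fibre synapses, was 18.9-fold higher. The remaining markers are also used by medullary cells and differed less, with 3.19-fold for Wfs1, 3.18-fold for Calb1, 3.01-fold for Prox1 and 2.46-fold for Zbtb20. Frem3 was 1.93-fold higher, and its libraries overlapped between regions, since the lowest hippocampus library had 1.61 CPM and the highest brainstem library 2.43 CPM. Within WT-SD, the log2 difference of Frem3 between the regions was 0.40. The median log2 difference was 2.96 over the 10 genes and -0.018 over all 13458 genes scaled. Markers of hippocampus were chosen here, so these ratios describe the labels and are not a result about the genes.

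**Figure D1:**
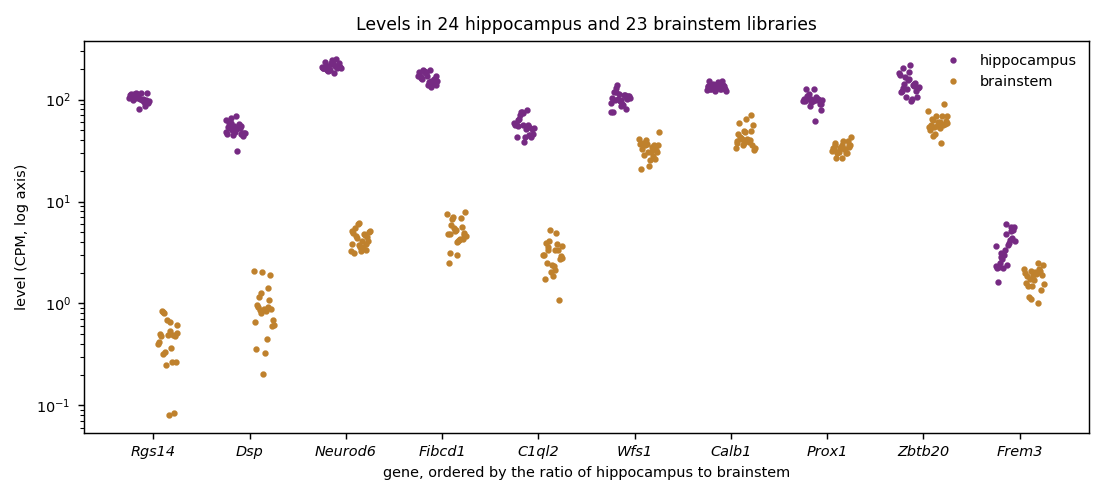
Each point is 1 library, with the level in CPM on a log axis for 24 hippocampus and 23 brainstem libraries, each region scaled on its own. Genes are ordered by their ratio, from Rgs14 at 183-fold to Frem3 at 1.93-fold, and Frem3 overlaps between the regions.

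Frem3 (ENSMUSG00000042353) was higher in TG than in WT hippocampus on both diets. Its level ran from 1.62 over a median of 2.28 to 3.68 CPM in WT-SD, and from 2.25 over 2.90 to 3.32 CPM in WT-HFD. In TG-SD it ran from 2.39 over 4.09 to 6.07 CPM, and in TG-HFD from 4.14 over 5.21 to 5.61 CPM. All 6 TG-HFD libraries lay above all 12 WT libraries. In TG-SD, 5 of 6 libraries did so, and the exception was replicate 5, which lay below the highest WT-SD library. Between TG-HFD and WT-HFD, the groups did not overlap for 4.15% of all tested genes. Mean levels were 2.43 ± 0.679 CPM (SD, n = 6) in WT-SD, 2.88 ± 0.369 in WT-HFD, 4.19 ± 1.22 in TG-SD and 5.02 ± 0.629 in TG-HFD. The fitted log2 fold change was 0.90 with a standard error (SE) of 0.165 for TG-SD against WT-SD and 0.83 (SE 0.200) for TG-HFD against WT-HFD. Without replicate 5 of TG-SD, the first value was 0.90. Over all alternatives of the processing and with each library left out, it lay between 0.77 and 0.99 on standard diet, and between 0.70 and 0.95 on high fat diet. The difference between these effects was -0.072 (SE 0.225), with a 95% interval from -0.51 to 0.37. These are the values that put Frem3 among the genes, so no test is given.

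Diet did not move Frem3 past the threshold in either genotype. A gene was called at an adjusted p of at most 0.05 and a log2 fold change of at least 0.3 in either direction, by edgeR's quasi-likelihood test with Benjamini-Hochberg adjustment over all tested genes. The log2 fold change of WT-HFD against WT-SD was 0.27 (SE 0.180), with an adjusted p of 0.875 and a 95% interval from -0.079 to 0.63. For TG-HFD against TG-SD it was 0.20 (SE 0.131), with an adjusted p of 0.825 and an interval from -0.055 to 0.46, and it was 0.095 without replicate 5 and 0.32 without replicate 3 of TG-SD. The WT value was 0.53 without replicate 3 of WT-SD, the highest library of its group. In brainstem, Frem3 had 11 to 28 counts per library, and all 4 groups overlapped. Mean levels there were 1.82 ± 0.291 CPM (SD, n = 5) in WT-SD, 1.58 ± 0.404 (n = 6) in WT-HFD, 1.86 ± 0.492 (n = 6) in TG-SD and 1.91 ± 0.385 (n = 6) in TG-HFD. No test was run in brainstem, where Frem3 had a mean of 22.1 counts.

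The family genes Fras1, Frem1 and Frem2 were measured together with Grip1, whose protein is a partner and not a family member. Of these, Fras1 and Grip1 passed the filter. FRAS1 forms complexes with FREM proteins, and GRIP1 is a scaffold protein that carries FRAS1 to the membrane and also binds AMPA receptors. Fras1 ranged from 7.52 to 18.4 CPM in hippocampus and Grip1 from 15.8 to 24.8 CPM. The log2 fold changes of Fras1 were 0.069 (SE 0.15) for TG-SD against WT-SD and -0.31 (SE 0.190) for TG-HFD against WT-HFD, with edgeR adjusted p of 0.931 and 0.579. For Grip1 they were -0.065 (SE 0.0688) and 0.26 (SE 0.0893), with edgeR adjusted p of 0.829 and 0.217. Frem1, at 1.29 to 3.20 CPM, and Frem2, at 1.44 to 3.91 CPM, were below the filter. Neither Fras1 nor Grip1 was called in a hippocampus contrast.

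**Figure D2:**
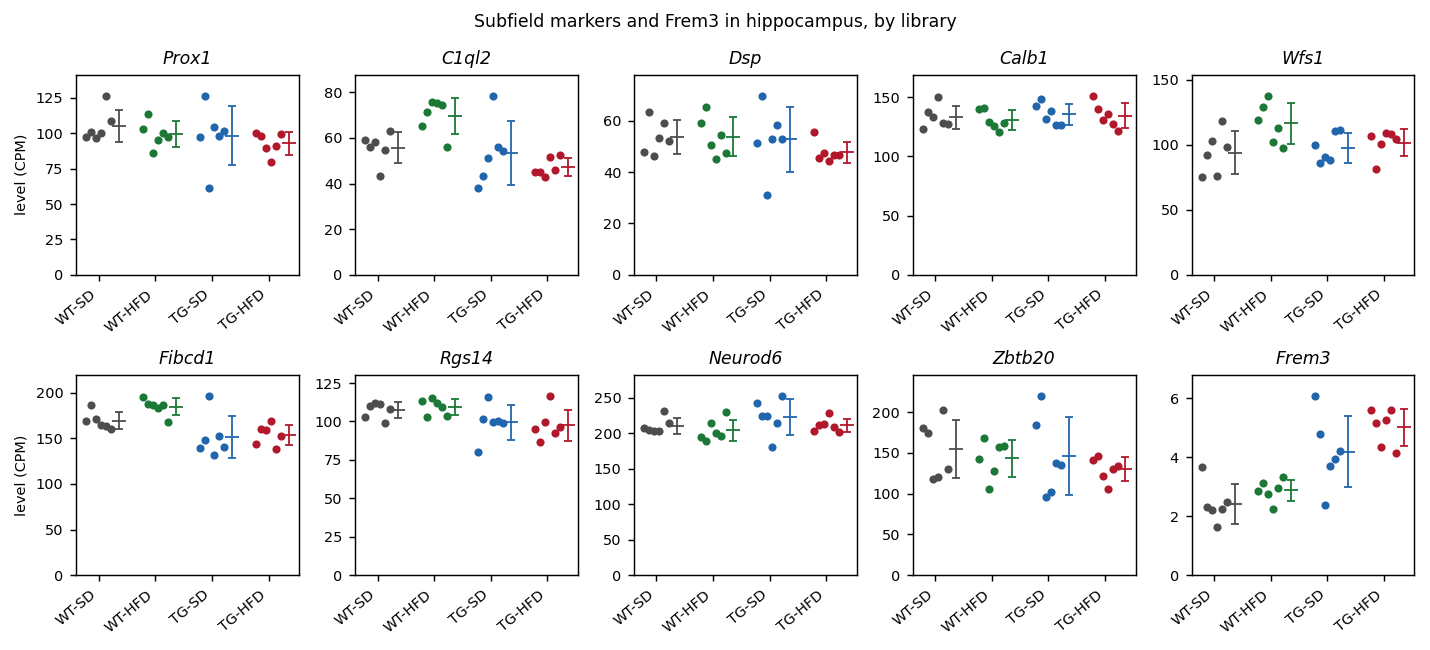
Levels in CPM of the 10 genes in 24 hippocampus libraries, by group. Points are libraries, and the bar beside them is the mean with its SD (n = 6). Frem3 is higher in all 6 TG-HFD libraries than in every WT library, and C1ql2 is lower in all 6 TG-HFD than in all 6 WT-HFD libraries. TG-HFD and WT-HFD do not overlap for 4.15% of all tested genes, and Frem3 was selected on its genotype difference.

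Of the 9 markers, 0 were called for TG-SD against WT-SD in hippocampus, where 0.098% of all tested genes were called, and DESeq2 called 0 of the 9 too. Fibcd1 and Rgs14 had an unadjusted p of at most 0.05, as did 9.08% of all genes. For TG-HFD against WT-HFD, 0 of 9 were called beside 0.226% of all genes, and Calb1, Fibcd1 and Zbtb20 had an unadjusted p of at most 0.05 beside 11.3% of all genes. The 2 diet contrasts and the interaction of genotype and diet called 0 of 13272 genes in edgeR (0%), where DESeq2 called 3 for WT-HFD against WT-SD, 2 for TG-HFD against TG-SD and 1 for the genotype by diet term. Unadjusted p-values of at most 0.05 were found for 6.41% of all genes for WT-HFD against WT-SD, among them Calb1 and Wfs1, 7.08% for TG-HFD against TG-SD, among them Zbtb20, and 5.98% for the interaction, among them Calb1 and Zbtb20. The groups of 1 marker, C1ql2, did not overlap between TG-HFD and WT-HFD, as was seen for 4.15% of all genes. No marker separated TG-SD from WT-SD, WT-HFD from WT-SD or TG-HFD from TG-SD, where 0.264%, 0.467% and 0.0226% of all genes did.

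Among the dentate gyrus markers, Prox1 (ENSMUSG00000010175), the homeobox factor that sets granule cell identity, had similar levels in the 4 groups. Group means were 105 ± 11.3 CPM (SD, n = 6) in WT-SD, 99.4 ± 9.08 in WT-HFD, 98.3 ± 20.95 in TG-SD and 92.9 ± 8.05 in TG-HFD. Its log2 fold change was -0.10 (SE 0.0802, edgeR adjusted p = 0.743) for TG-SD against WT-SD, and -0.010 without replicate 5 of TG-SD. For TG-HFD against WT-HFD it was -0.15 (SE 0.106, edgeR adjusted p = 0.625). Dsp (ENSMUSG00000054889) ranged from 31.1 to 69.7 CPM, with log2 fold changes of -0.0062 (SE 0.0903) on standard diet and -0.21 (SE 0.120) on high fat diet, both genotype comparisons with an edgeR adjusted p of at least 0.535. The 95% interval of the second reached from -0.45 to 0.025. Without replicate 5 of TG-SD, the value of Dsp on standard diet was 0.13 (edgeR adjusted p = 0.549). Calb1 (ENSMUSG00000028222), the calcium buffer calbindin, varied least of the 10, from 121 to 151 CPM. Its log2 fold changes were 0.0048 (SE 0.0387) and -0.12 (SE 0.0510), with edgeR adjusted p of 0.985 and 0.339. Without surrogate variables, the second value was 0.039 (SE 0.0560, edgeR adjusted p = 0.732), of the opposite sign. Its value for WT-HFD against WT-SD was 0.092 (SE 0.0435) with surrogate variables and -0.026 (SE 0.0561) without. Reads of antisense genes that overlap Prox1 and Dsp could be counted with these genes, since strandedness was not given in the sources used here.

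C1ql2 (ENSMUSG00000036907) differed between the groups in raw level but was not called in the main fitted model. It ran from 43.1 over a median of 57.0 to 63.1 CPM in WT-SD and from 55.9 over 72.9 to 75.8 CPM in WT-HFD. In TG-SD it ran from 38.0 over 52.8 to 78.4 CPM, and in TG-HFD from 42.8 over 45.6 to 52.7 CPM. The highest TG-HFD library lay below the lowest WT-HFD library, while the TG-SD libraries spanned the range of all other groups. Surrogate variables are estimated from all genes and are meant to stand for unwanted variation. Whether they also hold part of a group difference was not tested. With 4 surrogate variables, the log2 fold change of TG-HFD against WT-HFD was -0.13 (SE 0.0980), with an edgeR adjusted p of 0.662. Without surrogate variables it was -0.56 (SE 0.117), with an edgeR adjusted p of 0.00478, and C1ql2 was then called lower, as were 3.88% of all genes in either direction. It was also called with 1 surrogate variable at -0.56 and with 2 at -0.56, and was not called with 3 at -0.19 (edgeR adjusted p = 0.402). With no filter on low counts and 6 surrogate variables it was -0.296 (edgeR adjusted p = 0.0301). That value passed the threshold for p and fell just short of the fold threshold. For TG-SD against WT-SD the value was 0.040 (SE 0.0752) with surrogate variables and -0.057 (SE 0.117) without.

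The level of C1ql2 moved with a measure computed from the levels of the tested genes in each library. What sets this measure was not tested. For each library, the log2 difference of every gene from the average over libraries was regressed on the gene's GC content, and the slope per 10 percentage points is called the GC slope. Its median was 0.119 in WT-HFD, 0.0232 in WT-SD, -0.0259 in TG-SD and -0.0554 in TG-HFD, and the transcript of C1ql2 has 63.4% GC. Over 24 hippocampus libraries, Pearson's r between the log2 level of C1ql2 and the GC slope was 0.862, and 0.761 after centring each group. Over 23 brainstem libraries these values were 0.745 and 0.805. Other markers also moved with the slope in hippocampus. Before and after centring, r was 0.698 and 0.583 for Rgs14, at 52.0% GC, and 0.657 and 0.361 for Fibcd1. It was -0.538 and -0.483 for Neurod6, and before centring the remaining markers lay between -0.34 (Calb1) and 0.44 (Wfs1). Both measures come from the same libraries, and the correlation is a description. With a GC correction in place of surrogate variables, the log2 fold change of C1ql2 in TG-HFD against WT-HFD was -0.19, with an edgeR adjusted p of 0.296. With the correction and surrogate variables it was -0.090 (edgeR adjusted p = 0.822). The median GC slope differed between WT-HFD and TG-HFD, so its part in the C1ql2 difference cannot be told apart from that of genotype. That part was not tested. For Frem3, at 50.5% GC, r with the GC slope was -0.461, and -0.195 after centring each group, and its log2 fold change was 0.80 under the GC correction without surrogate variables.

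**Figure D3:**
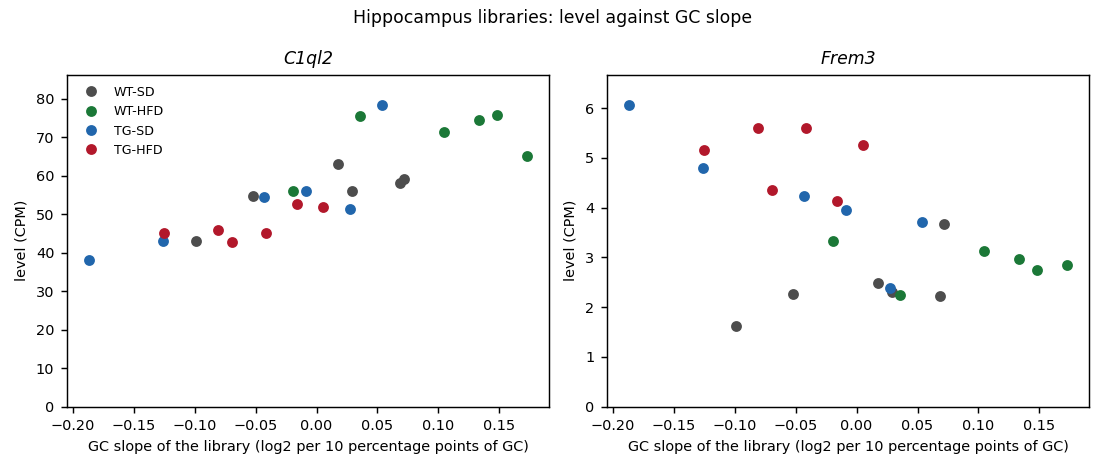
Levels in CPM of C1ql2 (left) and Frem3 (right) against the GC slope of each of 24 hippocampus libraries, coloured by group. C1ql2 is higher at higher slopes (r = 0.862 on the log2 scale), and Frem3 is lower at higher slopes over all libraries (r = -0.461 on the log2 scale).

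Among the CA1 markers, Fibcd1 (ENSMUSG00000026841) was not called in any contrast of the main model. It ran from 160.2 over a median of 167 to 187 CPM in WT-SD and from 169 over 187 to 196 CPM in WT-HFD. In TG-SD it ran from 132 over 145 to 196 CPM, and in TG-HFD from 138 over 156 to 169 CPM. The 6 TG-HFD libraries reached just into the range of WT-HFD, while in TG-SD replicate 5 alone lay above all WT-SD libraries. The log2 fold change was -0.13 (SE 0.0607) for TG-SD against WT-SD, with an edgeR adjusted p of 0.535. Without replicate 5 of TG-SD, it was -0.22 with an edgeR adjusted p of 0.0351, past the threshold for p but not for the fold change. For TG-HFD against WT-HFD it was -0.22 (SE 0.0793), with an edgeR adjusted p of 0.252, and -0.27 (SE 0.0690) with an adjusted p of 0.0168 without surrogate variables, again below the fold threshold. Under the GC correction without surrogate variables it was -0.032 (edgeR adjusted p = 0.894), and the transcript has 59.4% GC.

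Wfs1 (ENSMUSG00000039474), which encodes the endoplasmic reticulum protein wolframin, ranged from 75.4 to 137 CPM. Mean levels were 93.7 ± 16.5 CPM (SD, n = 6) in WT-SD, 116 ± 15.5 in WT-HFD, 97.4 ± 11.2 in TG-SD and 102 ± 10.4 in TG-HFD. The log2 fold change of WT-HFD against WT-SD was 0.24 (SE 0.10), with an unadjusted edgeR p of 0.0225 and an adjusted p of 0.722. It was 0.066 (SE 0.0840) for TG-HFD against TG-SD, and the difference of -0.18 (SE 0.133) between the diet effects had an edgeR adjusted p of 0.927. The genotype values of Wfs1 were 0.096 (SE 0.0906) on standard diet and -0.079 (SE 0.118) on high fat diet.

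Rgs14 (ENSMUSG00000052087), the CA2 marker, ranged from 80.1 to 116 CPM. Its log2 fold change was -0.11 (SE 0.0476, edgeR adjusted p = 0.496) for TG-SD against WT-SD and -0.070 (SE 0.0624, edgeR adjusted p = 0.732) for TG-HFD against WT-HFD. The 95% interval of the first was from -0.20 to -0.012 and that of the second from -0.19 to 0.053. Without surrogate variables, the second value was -0.17 (SE 0.0664, edgeR adjusted p = 0.127). Over the alternatives it lay between -0.17 and -0.038. An adjusted p of at most 0.05 was reached in at least 1 of them, and the fold threshold in none. Diet moved Rgs14 by -0.030 (SE 0.0530) in WT and 0.0064 (SE 0.0452) in TG mice, on the log2 scale.

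Of the broader markers, Neurod6 (ENSMUSG00000037984) had the tightest estimates after Calb1 and Rgs14. Its mean level was 211 ± 11.4 CPM (SD, n = 6) in WT-SD, 204 ± 15.0 in WT-HFD, 223 ± 25.1 in TG-SD and 211 ± 9.62 in TG-HFD. The log2 fold change was 0.048 (SE 0.0520) for TG-SD against WT-SD and -0.042 (SE 0.0676) for TG-HFD against WT-HFD, with edgeR adjusted p of 0.836 and 0.868. Zbtb20 (ENSMUSG00000022708), a zinc finger repressor that hippocampal neurons need to take their identity and that astrocytes also express, was the most variable of the markers. It ran from 118 over a median of 153 to 202 CPM in WT-SD and from 106 over 150 to 168 CPM in WT-HFD. In TG-SD it ran from 96.0 over 137 to 220 CPM, and in TG-HFD from 105 over 132 to 147 CPM, and all 4 groups overlapped.

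The fitted values of Zbtb20 stayed short of the threshold for a call. The log2 fold change of TG-HFD against WT-HFD was -0.31 (SE 0.0818), with an unadjusted edgeR p of 0.000719 and an adjusted p of 0.103. It passed the threshold in 1 alternative, without replicate 3 of TG-HFD, at -0.36 with an edgeR adjusted p of 0.0335. With no filter on low counts it was -0.257 (edgeR adjusted p = 0.0123), past the threshold for p but not for the fold change. Without surrogate variables it was -0.14 (edgeR adjusted p = 0.647). For TG-HFD against TG-SD the value was -0.23 (SE 0.0590, edgeR adjusted p = 0.30). The difference between the diet effects was -0.25 (SE 0.0932, edgeR adjusted p = 0.709). Without replicate 5 of TG-SD, these values were -0.25 and -0.26, with edgeR adjusted p of 0.263 and 0.767. Surrogate variables held 87.6% of the variance of Zbtb20 within groups, the most of the 10 genes, followed by C1ql2 with 66.3% and Calb1 with 63.0%, down to Fibcd1 with 21.1%. Antisense genes overlap Zbtb20, and their reads could be counted with it.

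**Figure D4:**
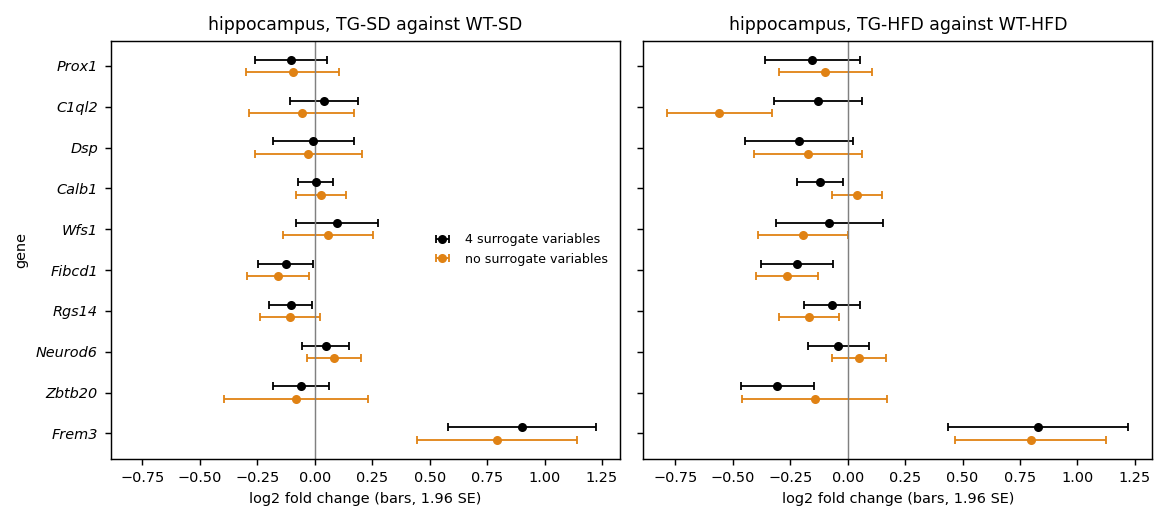
Log2 fold changes of TG against WT in hippocampus on standard diet (left) and high fat diet (right), with bars of the 95% interval, with 4 surrogate variables (black) and without (orange). C1ql2 on high fat diet moves from -0.56 without to -0.13 with surrogate variables, while Frem3 stays between 0.79 and 0.90 in all 4 estimates. Frem3 was selected on its genotype difference, so its bars are a description and not a test.

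The other genes of each subfield were counted from lists of known markers, which include the members. Of 15 granule cell genes tested, 0 were called in any hippocampus contrast, and the median log2 fold change was -0.017 for TG-SD against WT-SD and -0.082 for TG-HFD against WT-HFD, where the medians of all genes were -0.00057 and -0.0054. Of 9 CA1 genes, 0 were called, with medians of -0.070 and -0.20, and 1 of 9 had a positive value on high fat diet. Unadjusted edgeR p was at most 0.05 for 5 of these 9 on high fat diet, beside 11.3% of all genes, and for 3 of 6 astrocyte and 2 of 2 mossy cell genes in the same contrast. Without surrogate variables the CA1 count was 4 and the median -0.12. For WT-HFD against WT-SD, the median of the CA1 list was 0.12, with 8 of 9 values positive and 0 called, and without surrogate variables 5 of 9 were positive. Of 6 CA2 and 6 CA3 genes tested, 0 were called, with medians of 0.021 and 0.018 on standard diet and -0.017 and 0.042 on high fat diet. Of 5 genes shared by hippocampal principal or pyramidal cells and 2 tested genes of hilar mossy cells, 0 were called.

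Within these lists, the largest genotype values on standard diet were -0.23 (SE 0.0715) for Maml2 among granule cell genes, -0.23 (SE 0.128) for Lefty1 in CA1, 0.25 (SE 0.131) for Ntf3 in CA2 and 0.080 (SE 0.0594) for Homer3 in CA3. On high fat diet they were -0.21 (SE 0.120) for Dsp, -0.39 (SE 0.167) for Lefty1, -0.52 (SE 0.148) for Cacng5 in CA2 and -0.16 (SE 0.0914) for Bok in CA3. Lefty1 is a secreted inhibitor of Nodal signalling, Ntf3 encodes neurotrophin 3 and Bok is a relative of BCL2. The smallest edgeR adjusted p among these 8 values was 0.130, for Cacng5, an auxiliary subunit of AMPA receptors. For mossy cells, the receptor gene Calcrl gave -0.081 (SE 0.108) on standard and -0.31 (SE 0.141) on high fat diet. For the broad markers, Zbtb20 had the largest value on both diets, and for the subiculum it was Fn1, with -0.21 (SE 0.0710) on standard diet. Fn1, which encodes the matrix protein fibronectin and is also made by blood vessels, was called lower for TG-HFD against WT-HFD at -0.44 (SE 0.0921, edgeR adjusted p = 0.0210). Without surrogate variables it was -0.23 (SE 0.0952, edgeR adjusted p = 0.139), and the call was lost. Leaving Frem3 aside, whose genotype values are not tested, no other listed gene was called in a hippocampus contrast of the model with surrogate variables.

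Lists of other cell types served as a check of the dissection and makeup of the tissue. Among 6 GABA neuron, 6 astrocyte, 6 oligodendrocyte, 2 choroid plexus, 3 thalamus, 4 neocortex and 3 subiculum genes tested in hippocampus, Fn1 alone was called, and the medulla list had 0 genes above the filter. Medians for TG-HFD against WT-HFD were -0.074 for GABA neurons, -0.091 for astrocytes, -0.060 for oligodendrocytes, -0.014 for thalamus, 0.036 for neocortex and -0.12 for subiculum genes. For the 2 choroid plexus genes the median was 0.35. Without surrogate variables, C1ql2 and Plk5 of the granule cell list, Lefty1 and Pou3f1 of the CA1 list, Neurod2 of the broad list and Slc32a1 of the GABA neuron list were called lower for TG-HFD against WT-HFD, in a fit that called 3.88% of all genes. The values were -0.59 for Plk5, -0.71 for Lefty1, -0.37 for Pou3f1, -0.37 for Neurod2 and -0.35 for Slc32a1.

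Markers of the same subfield did not all vary together between libraries. Correlations are of log2 levels after centring each group, over 24 hippocampus libraries that share depth and base composition effects. Prox1 and Dsp rose and fell together (r = 0.853), and both did so with Zbtb20 (r = 0.681 and 0.617). Without replicate 5 of TG-SD, these values were 0.674, 0.624 and 0.512. C1ql2, another granule cell gene, had r = -0.048 with Prox1 and -0.090 with Dsp. Fibcd1 of CA1 and Rgs14 of CA2 had r = 0.589, which was 0.421 without replicate 5. Prox1 and Fibcd1 ran against each other (r = -0.634), but the value was -0.164 without that library. Rgs14 ran against Zbtb20 (r = -0.642) and against Frem3 (r = -0.587), and these values were -0.562 and -0.446 without it. Frem3 had its highest centred r among the markers with Zbtb20 (0.643, or 0.546 without it). Wfs1 and Fibcd1, both of CA1, had r = -0.049.

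**Figure D5:**
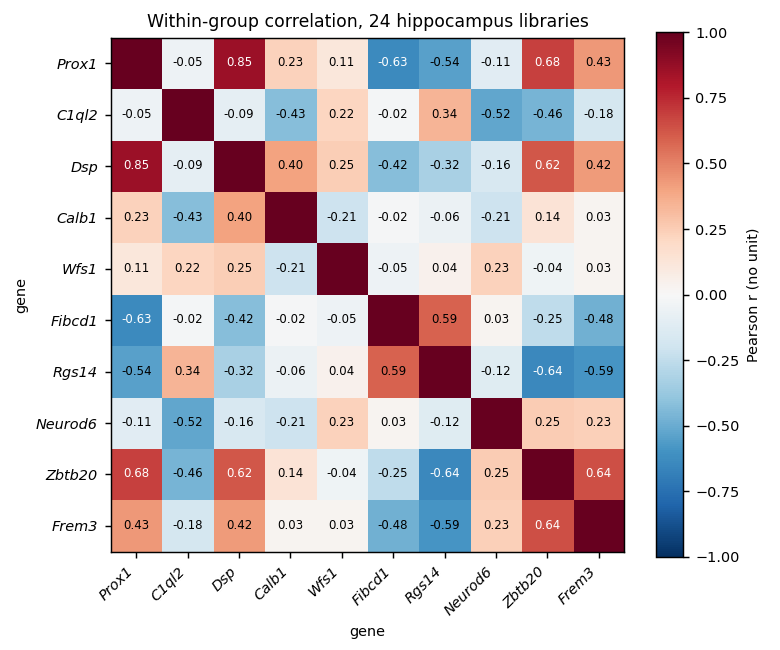
Pearson's r between log2 levels of the 10 genes in 24 hippocampus libraries, each level taken as the deviation from its group mean. Red cells are positive and blue cells negative, from 0.853 for Prox1 with Dsp to -0.642 for Rgs14 with Zbtb20.

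Over all 24 hippocampus libraries, the tested genes most like each marker in log2 level were Sema5a for Prox1 (r = 0.904), Jph4 for C1ql2 (0.928), Dgkh for Dsp (0.859), Rnf168 for Calb1 (0.757) and Kctd1 for Wfs1 (0.776). For the other markers they were Sez6 for Fibcd1 (0.849), Olig1 for Rgs14 (0.851), Fam19a1 for Neurod6 (0.773) and Cacna1e for Zbtb20 (0.966). Jph4, the closest to C1ql2, has 60.3% GC. For Frem3 the highest were A430033K04Rik (0.806) and Thy1 (0.767), and another row is not reported here. After centring each group, these values were 0.683 and -0.174, so that the likeness to Thy1, whose promoter drives the transgene, was one of group means. The lowest were Slc38a3 (-0.827), an amino acid transporter gene, Serpina3n (-0.774) and Kctd15 (-0.773), with centred values of -0.749, -0.298 and -0.464.

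In brainstem, 6 of 10 genes were tested and 0 were called in the 5 contrasts. Of all genes, 0.142% were called for TG-SD against WT-SD, 0.0525% for TG-HFD against WT-HFD, 0% for WT-HFD against WT-SD, where DESeq2 called 1 gene and 724 genes had an unadjusted edgeR p of at most 0.05, and 0.0075% each for TG-HFD against TG-SD and the interaction. The largest values were those of Neurod6, with -0.36 (SE 0.239, edgeR adjusted p = 0.993) for the interaction, 0.34 (SE 0.162, edgeR adjusted p = 0.916) for WT-HFD against WT-SD and -0.31 (SE 0.181, edgeR adjusted p = 0.948) for TG-HFD against WT-HFD, at 33 to 90 counts per library. Prox1, at 26.7 to 43.3 CPM, and Zbtb20, at 37.1 to 91.2 CPM, had genotype values between -0.090 and 0.10. Without surrogate variables, TG-HFD against WT-HFD gave 0.24 (SE 0.0872, edgeR adjusted p = 0.160) for Prox1 and 0.26 (SE 0.136, edgeR adjusted p = 0.291) for Zbtb20. Calb1 ranged from 32.1 to 71.1 CPM, Wfs1 from 20.9 to 48.2 CPM and Fibcd1 from 2.51 to 7.85 CPM. Of the genes below the filter, C1ql2 ranged from 1.09 to 5.30 CPM, Dsp from 0.205 to 2.09 CPM and Rgs14 from 0.0811 to 0.847 CPM, and the groups of all 10 genes overlapped in each genotype and each diet comparison.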

How the data were processed

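RNA was measured in 24 hippocampus and 23 brainstem libraries of poly(A) RNA, sequenced single-end. The authors aligned reads with STAR 2.7.9a and deposited raw counts per gene and library, and the submitters' processing notes also name FastQC 0.11.9 and DESeq2 1.32.0. The read counter is not given in the sources used here. One WT-SD brainstem sample had been left out by the authors for RNA quality. Groups and replicate numbers came from the labels. Whether hippocampus and brainstem libraries share mice is not given per library, and p-values measure the spread between these mice.

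Counts were tested per region with edgeR 4.0.16 (R 4.3.3) by the quasi-likelihood test after TMM scaling, with the 4 groups in 1 model and 4 surrogate variables in each region from svaseq (sva 3.50.0, number by its permutation method with 20 permutations). The filter was a mean count of at least 50. Adjustment of p-values was by Benjamini-Hochberg across all tested genes, and calls needed an adjusted p of at most 0.05 and a log2 fold change of at least 0.3. Intervals are the estimate ± 1.96 SE. Log2 CPM used a prior count of 2. Symbols, exon lengths and GC content came from GENCODE for GRCm38, another build than that of the counts, so no coordinates of the counted genes are given. The GC correction fitted a loess curve (span 0.3) per library as an offset. DESeq2 1.42.0 was an alternative. Python 3.11.15 with numpy 2.4.6, pandas 2.3.3 and matplotlib 3.10.9 served for the rest. The model was also run on simulated counts with known changes. These counts held no unwanted variation, so the run could not check the surrogate variables.

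The members and gene lists were chosen with earlier results of these data known. Named genes were the members, every listed gene called in hippocampus and the gene of each subfield list with the largest genotype value. The FRAS1 and FREM family and Grip1 were named too. So were the genes most and least like Frem3 or most like each other member. Plk5, Pou3f1, Neurod2 and Slc32a1 were named after their values were seen. Alternatives were DESeq2, RLE scaling, 0 to 3 surrogate variables, other filters, the GC correction, a block for the replicate number, no fold threshold, the 2 compared groups alone and each library left out. Of these, 3 surrogate variables and the GC correction or block without surrogate variables were added after seeing the data. The level of the transgene is not reported here.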

Additional observations from a re-analysis of the deposited data

Results flagged for a closer look

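In 8 of 80 groups of 5 or 6 libraries, the highest or lowest library lay apart by Dixon's 95% critical value. Chance gives about 1 in 20, or 4 of 80. In hippocampus, TG-HFD replicate 3 was high in Dsp at 55.4 CPM, TG-HFD replicate 4 was low in Wfs1 at 81.3 CPM, and TG-SD replicate 5 was high in Fibcd1 at 196 CPM. The last library also had the lowest Prox1, Dsp and Zbtb20 level of all hippocampus libraries, at 61.5, 31.1 and 96.0 CPM.

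In brainstem, TG-HFD replicate 3 was low in C1ql2 at 1.09 CPM, high in Dsp at 1.92 CPM and high in Zbtb20 at 91.2 CPM. It also had the lowest GC slope of the brainstem libraries, at -0.325, and its part in these values was not tested. TG-SD replicate 8 was high in Fibcd1 at 6.96 CPM, and WT-SD replicate 8 was high in Rgs14 at 0.847 CPM. The Dsp and Rgs14 values rest on at most 25 and 12 counts per brainstem library.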

How the results depend on the processing

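The count of markers called for TG-HFD against WT-HFD in hippocampus rose from 0 to 1 with 0, 1 or 2 surrogate variables, with the replicate block and no surrogate variables, and with only the 2 groups compared, where it was C1ql2. Leaving out single libraries gave 0 to 1, the latter without TG-HFD replicate 3, where it was Zbtb20 (-0.36). Log2 fold changes of C1ql2 were -0.56 with 0, 1 or 2 surrogate variables and with the block alone, and -0.47 with the 2 groups alone, and the cause was not tested. The genotype contrasts and the interaction of Frem3 in hippocampus are left out of these counts. All other counts of called members in both regions were 0 under every alternative run. Of 80 member values, 42 changed sign in at least 1 alternative. Without replicate 5 of TG-SD, the diet value of Frem3 in TG mice was 0.095, against 0.20 with it, and without replicate 3 of WT-SD its diet value in WT mice was 0.53, against 0.27.

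The number of all genes called for TG-HFD against WT-HFD in hippocampus was 30, but 515, 614 and 634 with 0, 1 and 2 surrogate variables, 258 with the 2 groups compared, 98 with the GC correction and no surrogate variables, 96 with no filter, and 573 and 14 with the replicate block without and with surrogate variables. For TG-SD against WT-SD it was 13, with 8 to 21 over the alternatives. For WT-HFD against WT-SD it was 0, but 23 and 30 with 1 and 2 surrogate variables, 13 with no filter, 3 with DESeq2 and 4 with filterByExpr. For TG-HFD against TG-SD it was 0, but 5 with no filter and 2 each with DESeq2, the GC correction and the 2 groups compared, and for the interaction it was 0, but 5 with no filter and 1 with DESeq2. The replicate numbers were not taken to pair the libraries, since a correlation over 0.1 was required of every same-numbered pair and 15 of 36 pairs in hippocampus and 10 of 26 in brainstem had one. The median correlation was 0.0651 for same-numbered and -0.0414 for other pairs in hippocampus, and 0.0392 and -0.0260 in brainstem. With the replicate block and surrogate variables, C1ql2 was at -0.11 and Zbtb20 at -0.30 for TG-HFD against WT-HFD. The ratio of hippocampus to brainstem of Zbtb20 was 2.39 with library totals in place of 2.46 with TMM, and its libraries then overlapped. Depth limits Frem3 most, with 25 to 91 counts per hippocampus library, and the 4 members below the filter in brainstem.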
